A study of Rattus norvegicus with 8 samples.

Results

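The genes described here are 8 genes known from podocytes: Nphs1, Podxl, Wt1, Synpo, Ptpro, Nes, Cd2ap and Clic5. They were chosen by symbol, and the probe set with the highest mean stood for each gene. All 8 were in the deposited table, among 23188 probe sets for transcripts, and all 8 were among the 13163 probe sets tested, which had to reach 7.54 on the log2 scale on at least 1 of the 8 arrays. For Nphs1, Wt1 and Ptpro only cortex arrays reached that value, so these genes entered the tests through the zone in which they were higher. Wt1 reached it only on the control and phlorizin arrays of the cortex, so it also entered the EG tests through the arrays on which it was higher. For these genes the fit over all probe sets without that filter is therefore given too.

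Podocytes are the epithelial cells that wrap the capillaries of the glomerulus. Their foot processes interlock, and the gap between them is bridged by the slit diaphragm, the last barrier of the kidney filter. Glomeruli lie in the renal cortex, while the outer medulla consists of tubules, vessels and interstitial cells. Several genes used as podocyte markers are also known from endothelial, interstitial or tubular cells.

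The study asked how inhibition of the glucose transporter SGLT2 relates to renal stones. Male Sprague-Dawley rats, aged 10 weeks, were controls, received ethylene glycol and alfacalcidol to induce stones (EG below), received phlorizin, an inhibitor of sodium-glucose cotransporters, or received EG and phlorizin. Kidneys were taken after 2 weeks and divided into cortex and outer medulla, and each of the 8 combinations of zone and treatment was measured on 1 Clariom S array. The sources used here do not give the dose of phlorizin, the number of rats or any pooling of their RNA. Both arrays of a treatment can come from the same rats. Values are log2 expression after RMA, and a level is never compared between genes. With 1 array per combination, a single difference between treatments has no replicate check, and the number of arrays limits the precision. The p-values that follow therefore do not measure a spread between replicates. The zone fit takes as error how unequal the zone difference was between treatments. The EG and phlorizin fits take as error how unequal the EG difference was with and without phlorizin. Noise of the arrays, which may be technical, is part of both. Limma also draws the error of each gene toward a value common to all probe sets. An SE or p-value is therefore not a measure of that gene's own inequality alone. For Ptpro in the cortex EG fit, the gene's own residual deviation was 0.026 and the SE 0.29.

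The zones matched their labels. All 7 tested transporters and receptors of the first proximal segment were higher in the cortex by limma, against 18.8% of all tested probe sets, and all 6 thick ascending limb genes were higher in the outer medulla, against 32.7%. Of the 7 proximal genes, 3 reached the filter only on cortex arrays. The background probes averaged 5.53 to 5.68 per array. The cortex EG array stood apart in its spike-in controls: its poly-A spikes averaged 6.42 and those of the other 7 arrays 7.46 to 8.23, so the EG differences are also given from the pair of phlorizin arrays.

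The sequences before the start sites of 5 of these genes are shown because the genes were well apart between zones (Nphs1, Ptpro, Clic5), were among those with the largest EG difference (Podxl), or went the opposite way (Cd2ap). Each is the 250 bases before the first base of a RefSeq gene on the build GRCr8, read 5′ to 3′ on the gene's strand, with every CpG in capitals. The windows are chr1:94848011-94848260 (+ strand) for Nphs1, chr4:171895261-171895510 (+) for Ptpro, chr9:24310965-24311214 (- strand) for Clic5, chr4:61149132-61149381 (-) for Podxl and chr9:25583725-25583974 (+) for Cd2ap.
Nphs1: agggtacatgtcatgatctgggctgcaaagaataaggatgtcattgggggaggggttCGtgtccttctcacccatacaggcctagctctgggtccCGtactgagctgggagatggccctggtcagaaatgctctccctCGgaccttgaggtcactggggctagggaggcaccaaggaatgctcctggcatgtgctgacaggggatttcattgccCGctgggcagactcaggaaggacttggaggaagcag
Ptpro: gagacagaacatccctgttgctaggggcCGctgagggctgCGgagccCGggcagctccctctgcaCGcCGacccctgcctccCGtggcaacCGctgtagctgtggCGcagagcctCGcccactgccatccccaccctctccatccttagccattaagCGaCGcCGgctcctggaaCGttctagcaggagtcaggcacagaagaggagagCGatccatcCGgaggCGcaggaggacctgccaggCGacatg
Clic5: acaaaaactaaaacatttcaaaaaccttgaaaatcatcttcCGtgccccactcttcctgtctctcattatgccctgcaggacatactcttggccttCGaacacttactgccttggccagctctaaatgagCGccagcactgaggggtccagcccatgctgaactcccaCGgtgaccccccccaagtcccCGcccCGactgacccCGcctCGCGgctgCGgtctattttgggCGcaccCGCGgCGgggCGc
Podxl: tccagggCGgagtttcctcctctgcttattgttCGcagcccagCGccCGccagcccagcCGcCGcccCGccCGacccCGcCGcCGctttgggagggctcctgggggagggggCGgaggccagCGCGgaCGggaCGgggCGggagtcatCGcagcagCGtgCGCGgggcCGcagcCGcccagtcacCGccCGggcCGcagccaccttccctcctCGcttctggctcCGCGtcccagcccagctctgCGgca
Cd2ap: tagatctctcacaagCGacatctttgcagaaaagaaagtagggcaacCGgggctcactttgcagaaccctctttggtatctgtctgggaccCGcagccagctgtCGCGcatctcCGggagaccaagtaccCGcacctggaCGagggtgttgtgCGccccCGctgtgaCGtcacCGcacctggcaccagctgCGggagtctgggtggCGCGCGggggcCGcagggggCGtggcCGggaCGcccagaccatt

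The Nphs1 window held 4 CpGs, and 37.4% of the 33469 rat windows held fewer. The Podxl window held 30, more than 94.7% of windows, and the other 6 genes had 14 to 27, against a median of 5 over all windows. Thus 7 of the 8 windows were above the median in CpGs and that of Nphs1 was below it. Short motifs of factors known from podocytes were searched on both strands. The letters GTGGGAGT, the core of a WT1 site, were found before Clic5 and in 1.14% of all windows. The letters TGCTGAC, part of a MAF site, were found before Nphs1 and in 3.53% of windows, and CAGCTG, an E-box of the TCF21 type, before Cd2ap and in 12.0%. The letters TAATTA, an LMX1B type site, and GTAAACA, a FOXC type site, were in none of the 8 windows and in 4.86% and 3.21% of all. A match of letters is a description of the window only.

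In kidneys without EG, 7 of the 8 genes were higher in the cortex than in the outer medulla, with and without phlorizin, and Cd2ap was lower. Of these 7, Nphs1, Wt1 and Ptpro had entered through cortex arrays only. The share of all tested probe sets with such signs was not counted. With EG the cortex minus outer medulla difference of Synpo was -0.20, and -0.29 with EG and phlorizin. Among the 5 genes that reached the filter in both zones, limma called Clic5, Podxl and Nes higher in the cortex over all treatments and Cd2ap lower. Of all tested probe sets 18.8% were called higher in the cortex and 32.7% lower. In the fit without the filter, which selects no gene by its level, Nphs1, Ptpro, Clic5, Podxl and Nes were called higher and Cd2ap lower, against 12.2% of all probe sets higher and 19.2% lower. At an unadjusted p under 0.05 Wt1 was also higher in the cortex, with and without the filter, and with it 21.4% of all probe sets were higher and 37.2% lower.

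Nphs1 encodes nephrin, the adhesion protein that spans the slit diaphragm. In the cortex it was at 8.82 in the control, 7.41 with EG, 8.58 with phlorizin and 8.15 with EG and phlorizin. In the outer medulla the same order of treatments gave 4.998, 5.12, 5.53 and 5.80, all close to the background probes, so differences among these 4 values carry no order. The 4 cortex arrays all lay above the 4 outer medulla arrays. With each outer medulla value raised to the mean of that array's background probes where it was lower, the mean of the cortex was higher by at least 2.59 on the log2 scale. The measured means were 8.24 and 5.36, and the limma adjusted p without the filter was 0.00014.

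Ptpro, which encodes the receptor tyrosine phosphatase GLEPP1 of the podocyte surface, gave a zone difference of 2.25 (SE 0.24, limma adjusted p = 0.00030 without the filter). Its cortex values were 9.17 in the control, 8.53 with EG, 9.02 with phlorizin and 8.33 with both, and its outer medulla values 6.26, 6.97, 6.36 and 6.46. The zones did not overlap. Podxl, encoding podocalyxin, the charged sialomucin that keeps foot processes apart and that is also known from endothelium, was well above background in both zones. It stood at 14.76, 13.27, 14.90 and 14.19 in the cortex, and at 13.91, 12.66, 13.83 and 13.44 in the outer medulla. The zone ranges overlapped because the cortex EG array was low, while the cortex was higher within each treatment (0.82, SE 0.14, limma adjusted p = 0.0038). Without the treatment as a block that adjusted p was 0.13.

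Clic5 encodes a chloride intracellular channel protein that ties podocalyxin and ezrin to the actin of foot processes. It was at 12.89 in the control, 11.45 with EG, 12.90 with phlorizin and 12.22 with both in the cortex, and at 11.14, 9.90, 10.91 and 9.92 in the outer medulla. All cortex values lay above all outer medulla values (difference 1.90, SE 0.17, limma adjusted p = 0.00025). Synpo, encoding synaptopodin, an actin-bundling partner of alpha-actinin, was at 10.62, 10.10, 10.51 and 9.63 in the cortex and at 9.41, 10.30, 9.82 and 9.92 in the outer medulla. Its zones overlapped, and its difference of 0.35 (SE 0.27) had a limma adjusted p of 0.32.

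Nes encodes nestin, an intermediate filament protein of podocytes that is also known from vessels and progenitor cells. Its cortex values were 8.14, 8.05, 8.33 and 7.49, and its outer medulla values 7.17, 7.83, 7.05 and 7.01, so that the outer medulla EG array reached into the cortex range (limma adjusted p = 0.023). Cd2ap, an adaptor that links nephrin to actin and is also found in tubules, was at 13.90, 14.76, 14.18 and 14.41 in the cortex. Its outer medulla values of 14.79, 14.92, 15.16 and 15.21 all lay above these, as held for 24.7% of all tested probe sets (cortex minus outer medulla -0.71, SE 0.18, limma adjusted p = 0.016). The calls of Nes and Cd2ap were lost when both arrays of the control, of phlorizin or of EG with phlorizin were left out, with limma adjusted p between 0.056 and 0.097.

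Wt1, the zinc finger transcription factor that podocytes keep through life, was at 8.43 in the control cortex and 7.88 with phlorizin, but at 7.14 with EG and 7.12 with both. The outer medulla gave 6.83, 7.04, 6.78 and 6.93. The cortex values of the EG arrays thus came within 0.10 and 0.18 of the outer medulla of the same treatment, against 1.60 in the control and 1.09 with phlorizin. The zones did not overlap for Wt1, as for Nphs1, Ptpro and Clic5, and all cortex arrays lay above for 14.3% of tested probe sets. For Wt1 the lowest cortex value was 7.12 and the highest outer medulla value 7.04. Of these genes, only Clic5 reached the filter in both zones. The share of all probe sets without the filter was not counted, so this count is a description only. Over all treatments the difference of 0.74 (SE 0.28) had a limma adjusted p of 0.061. It was 0.045 and 0.048 with arrays centred on their medians or quantile normalized, and 0.017 with both arrays of EG alone left out. The limma adjusted p was 0.068 without the filter, and 0.070 with an intensity trend and also without the treatment block. With both arrays of the control, of phlorizin or of EG with phlorizin left out it was 0.20, 0.19 and 0.074.

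**Figure D1:**
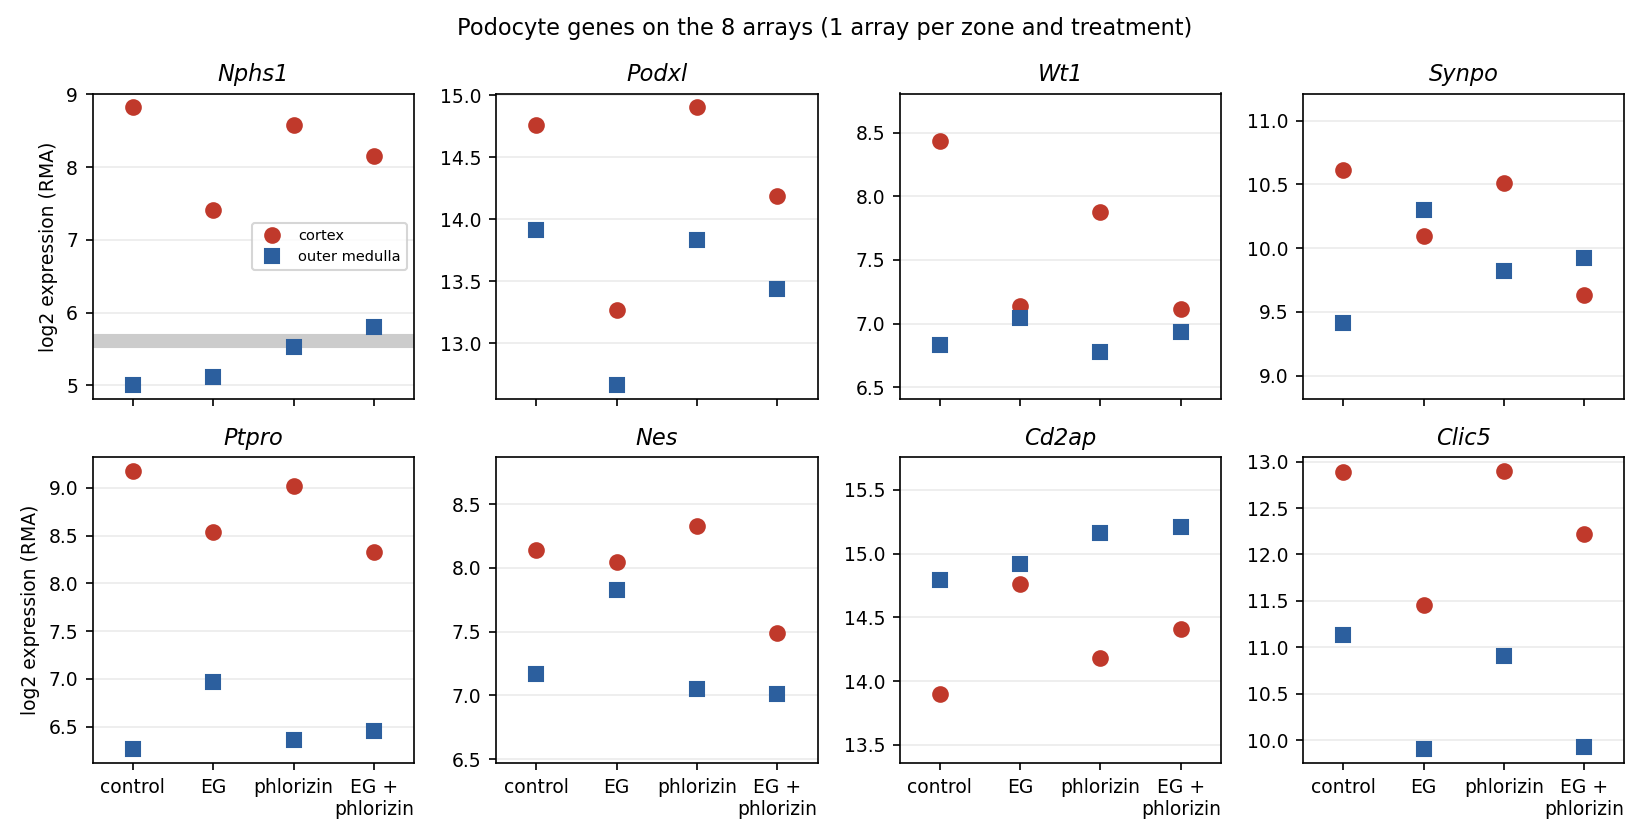
Log2 expression (y axis, RMA, a scale of its own for each gene, no axis from 0) of the 8 podocyte genes by treatment, with 1 array per point. Circles are cortex and squares are outer medulla, and the grey band in the Nphs1 panel is the range of the mean of the background probes, 5.53 to 5.68.

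**Figure D2:**
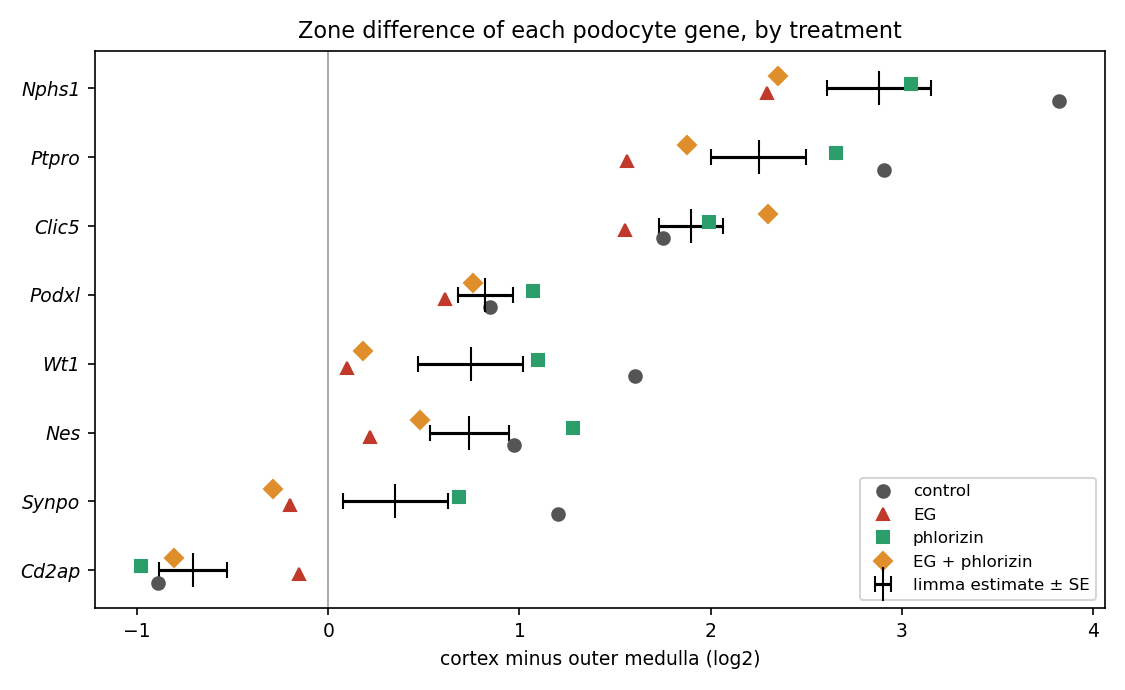
Cortex minus outer medulla on the log2 scale (x axis) for each gene, with a symbol for each treatment and the limma estimate with its SE as a bar. Ptpro and Clic5 lie to the right, at 2.25 and 1.90, Cd2ap lies left of 0 at -0.71, and the Nphs1 values are taken against outer medulla values near background.

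With EG, 7 of the 8 genes were lower in the cortex. The EG array and the array of EG with phlorizin both lay below the control and the phlorizin array for Nphs1, Podxl, Wt1, Synpo, Ptpro, Nes and Clic5. This held for 31.1% of all tested probe sets. For Cd2ap both EG arrays lay above the others, which held for 21.0% of all tested probe sets. The counting of arrays that do not overlap was added after the values had been seen. Without the cortex EG array the same 7 genes lay below, against 44.0% of all probe sets. Leaving out an EG array only eases the condition, so that count could not change. In a piece of cortex, fewer podocytes and less of these RNAs per podocyte cannot be told apart. Several of these genes are also known from other cells, and the part of other cells was not tested.

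Without phlorizin, 4 of the 8 genes were at least 1 lower on the log2 scale in the EG cortex than in the control cortex, and 12.7% of all tested probe sets were. None was at least 1 higher, as 9.66% of all were. Podxl differed by -1.49, which is 2.80-fold lower, Clic5 by -1.43 (2.70-fold), Nphs1 by -1.41 (2.65-fold) and Wt1 by -1.29 (2.45-fold). Smaller differences were seen for Ptpro (-0.64), Synpo (-0.52) and Nes (-0.09), and Cd2ap was 0.86 higher. The median of the 8 was -0.97, and that of all tested probe sets -0.07.

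Under phlorizin, where the EG comparison uses other arrays, the cortex differences were between -0.43 and -0.88 for the same 7 genes. Synpo differed by -0.88, Nes by -0.84, Wt1 by -0.76, Podxl by -0.71, Ptpro by -0.69, Clic5 by -0.67 and Nphs1 by -0.43, and Cd2ap was 0.22 higher. None reached 1 in size, as 1.55% of tested probe sets did on the lower side and 2.43% on the higher. The median was -0.70, against -0.05 over all tested probe sets. Ptpro differed by nearly the same amount in both comparisons, whereas Nphs1, Podxl, Wt1 and Clic5 differed less under phlorizin and Synpo and Nes more.

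In the fit of EG over the 4 cortex arrays, limma called none of the 8 genes at an adjusted p under 0.05, while 0.00760% of all tested probe sets were called lower and 0.0456% higher. At an unadjusted p under 0.05, 4 of the 8 were lower and none higher, against 8.55% of all probe sets lower and 7.56% higher. These 4 were Podxl (-1.10, SE 0.33, adjusted p = 0.20), Clic5 (-1.05, SE 0.32, 0.21), Wt1 (-1.02, SE 0.31, 0.20) and Nphs1 (-0.92, SE 0.34, 0.27), with adjusted p-values by limma. Without the filter Wt1 had an adjusted p of 0.19. The unadjusted count was 5 with an intensity trend, which added Synpo, while 1183 of all 13163 probe sets were lower and 952 higher. It was 6 with arrays centred and 6 without the filter, which added Synpo and Ptpro. With arrays centred 1158 of 13163 probe sets were lower and 877 higher, and without the filter 6.77% of all were lower and 6.04% higher. Each of these 6 genes was lower on 2 of 2 EG arrays. In this fit any difference in the EG response between the arms with and without phlorizin counts as error.

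In the outer medulla the genes parted. Podxl and Clic5 were lower there too, with differences of -1.25 and -1.23 without phlorizin and of -0.39 and -0.98 under phlorizin. For both, the 2 EG arrays lay below the 2 others, as for 31.2% of all tested probe sets, and they were the only members of the 8 at least 1 lower without phlorizin, against 9.69% of all. Wt1, Synpo and Ptpro were higher on both EG arrays, as were 26.8% of all probe sets. The differences were 0.21 and 0.15 for Wt1, 0.88 and 0.10 for Synpo and 0.71 and 0.09 for Ptpro, without and under phlorizin. None reached 1, which 8.58% of tested probe sets did without phlorizin. Under phlorizin none of the 8 genes was 1 or more in size in the outer medulla, against 3.65% of all higher and 3.01% lower.

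The size of the zone difference was also set against EG. Limma called none of the 8 genes there, and 0% of all probe sets. At an unadjusted p under 0.05 the zone difference was smaller with EG for Wt1, Synpo, Ptpro and Nes, 4 of the 7 genes other than Nphs1, against 6.47% of all lower and 5.90% higher. The estimates ran from -1.21 for Wt1 (SE 0.30) to -0.78 for Nes (SE 0.27), with limma adjusted p between 0.29 and 0.37. Nphs1 also had an unadjusted p under 0.05 there, but its outer medulla values were near background, and with an intensity trend its p was 0.061. Wt1 and Ptpro entered this fit through cortex arrays only, and Wt1 only through those without EG. Without the filter their unadjusted limma p was 0.0081 and 0.014, with adjusted p of 0.34 and 0.39. In that fit 1191 of 23176 probe sets were lower and 1083 higher at an unadjusted p under 0.05.

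The EG difference averaged over both zones was -1.08 for Clic5 (SE 0.23, limma adjusted p = 0.090) and -0.96 for Podxl (SE 0.27, 0.12). The other 6 genes lay between -0.42 and 0.32. Limma called none of the 8 in that fit, and 0.0380% of all probe sets higher and 0% lower. At an unadjusted p under 0.05 Clic5 and Podxl were lower and none higher, against 12.9% and 9.85% of all. The call of Clic5 depended on the setting: its adjusted p was 0.041 with arrays centred on their medians, 0.048 without the filter and 0.021 with the 8 arrays as samples and treatment as a random block. In that last setting Podxl had 0.029.

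**Figure D3:**
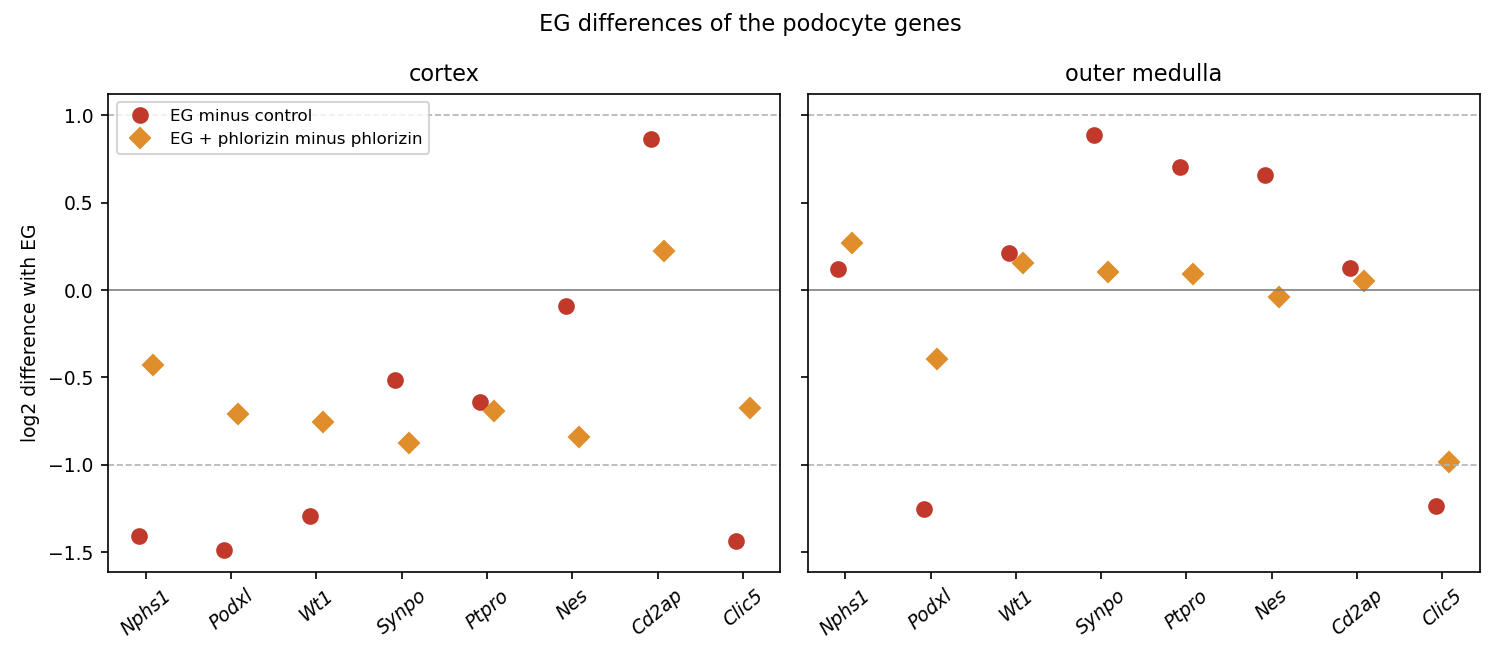
Log2 difference with EG (y axis) for each gene in the cortex (left) and outer medulla (right), as circles without phlorizin and diamonds under phlorizin, with dashed lines at 1 and -1. In the cortex all genes but Cd2ap lie below 0, and in the outer medulla Podxl and Clic5 lie lowest.

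Phlorizin alone went with small differences. In the cortex they ran from -0.56 for Wt1 to 0.28 for Cd2ap, and in the outer medulla from -0.23 for Clic5 to 0.53 for Nphs1, the latter between values near background. None was 1 or more in size, as 0.653% of tested probe sets were on the higher and 0.501% on the lower side in the cortex, and 0.577% and 0.205% in the outer medulla.

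Among EG kidneys, phlorizin went with different signs in the cortex. Podxl was 0.92 higher with phlorizin, Clic5 0.77 and Nphs1 0.74, so these 3 genes lay between the EG and the control array. Nes differed by -0.56, Synpo by -0.47, Cd2ap by -0.36, Ptpro by -0.20 and Wt1 by -0.02, and of these Cd2ap alone moved toward the control. None reached 1 in size, while 7.35% of all tested probe sets did so on the higher side and 6.18% on the lower. All these cortex differences use the cortex EG array, which stood apart in its spike-in controls, and no other pair of arrays gives them. In the outer medulla Podxl was 0.78 higher and Nes 0.82 lower (-0.82), Nphs1 was 0.68 higher near background, and Clic5 differed by 0.02. The shares of tested probe sets that reached 1 there were 3.35% on the higher side and 4.34% on the lower.

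These comparisons share arrays with the EG comparisons, so their values stand side by side and are not independent. In the limma fit of phlorizin over the cortex arrays, none of the 8 genes passed at an adjusted p (0% of all probe sets did) or at an unadjusted p under 0.05, which 2.13% of all passed on the higher and 2.46% on the lower side. Over both zones none passed either, against 1.53% and 2.02% at an unadjusted p. The largest estimates in the cortex were 0.53 for Podxl (SE 0.33) and 0.39 for Clic5 (SE 0.32), with limma adjusted p of 0.92 for both.

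Other genes of podocytes and their basement membrane, taken from lists of known genes, did not follow 1 direction. Of 10 tested genes of the slit diaphragm and its adaptors, 3 were at least 1 higher in the EG cortex without phlorizin and none lower, against 9.66% and 12.7% of all tested probe sets, with a median of 0.24. Kirrel1, encoding the nephrin partner NEPH1, went from 6.59 to 8.95 without phlorizin and stood at 7.31 on both arrays with phlorizin. It was 1 of the 3, and it reached the filter only on EG arrays. The giant cadherin gene Fat1 was 1.02 higher, and 0.35 under phlorizin. The zones also differed here, as limma called 7 of the 10 higher in the outer medulla and none higher in the cortex, against 32.7% and 18.8% of all.

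Of 11 tested genes of the podocyte surface and its signals, 4 were at least 1 lower in the EG cortex without phlorizin and none higher, against 12.7% and 9.66% of all. Sema3g, encoding a semaphorin made by podocytes and by endothelium, was at 10.64 in the control, 8.57 with EG, 10.23 with phlorizin and 9.92 with both. Npr3, the natriuretic peptide clearance receptor gene, differed by -1.11 and by -1.01 under phlorizin. The peptidase genes Mme and Enpep, which proximal tubules also express, differed by -1.27 and -1.23, and by -0.50 and -0.06 under phlorizin. Limma called 6 of the 11 higher in the cortex and 3 lower, against 18.8% and 32.7% of all. Of these, Sema3g reached the filter only on cortex arrays and Thsd7a only on outer medulla arrays.

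Among 7 tested genes of the foot process cytoskeleton, Nherf2, a scaffold that binds podocalyxin, differed by -1.44 without and by -0.93 under phlorizin in the cortex, and by -1.13 and -1.24 in the outer medulla. Vim, encoding vimentin, which interstitial cells and injured tubules also carry, was 3.69 and 1.32 higher in the cortex. Of 10 genes of podocyte adhesion and basement membrane, the EG cortex was higher by 1 or more for 3 and lower for 1, against the same shares of all. Col4a4, a chain of the type IV collagen of the mature glomerular basement membrane, went from 13.32 to 9.87 without phlorizin, and from 13.45 to 12.42 under it. In the outer medulla, where glomeruli are not normally found, it differed by -1.87 and -0.60. Agrn, encoding agrin, was 1.79 and 0.71 higher in the cortex. Of 4 tested transcription and cell cycle exit genes none reached 1 in the cortex without phlorizin, and Cdkn1c, encoding the cell cycle inhibitor p57, differed by -0.89, and by -1.02 under phlorizin. Limma called no gene of these lists for EG in the cortex at an adjusted p under 0.05. At an unadjusted p, 0 of 10 slit diaphragm genes were lower and 0 higher, 3 of 11 surface genes lower, 1 of 4 transcription genes lower, and in each of the cytoskeleton and adhesion lists 1 was lower and 1 higher. Over all tested probe sets 8.55% were lower and 7.56% higher.

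Markers of other cell types differed on the same arrays. The 10 tested endothelial genes averaged 11.63 in the control cortex, 11.16 with EG, 11.52 with phlorizin and 11.22 with both. For 7 of them both EG arrays lay below the 2 others in the cortex, as for 31.1% of all tested probe sets. In the cortex without phlorizin 7 of the 10 were lower with EG and 3 higher. Kdr, the main VEGF receptor gene, differed by -1.44 and by -0.65 under phlorizin, close to Podxl and Clic5, and in the outer medulla by -2.13 and -0.98. Cdh5 went the other way, 0.85 and 0.53 higher in the cortex and 0.33 and 0.27 higher in the outer medulla. Plat and Sox17 were 0.97 and 0.64 higher in the cortex without phlorizin, and differed by -0.14 and -0.38 under it. Ehd3, known from glomerular endothelium, differed by -1.20 and -0.69 in the cortex and was higher in the outer medulla than in the cortex by limma (cortex minus outer medulla -0.91, SE 0.20, adjusted p = 0.0088). Fibroblast genes averaged 10.75 in the control cortex, 13.90 with EG, 10.84 with phlorizin and 11.74 with both, and macrophage genes 8.70, 11.39, 8.75 and 9.62. All 6 tested fibroblast genes and all 10 tested macrophage genes lay above on both EG cortex arrays, as did 21.0% of all tested probe sets. In each of these lists 1 gene, Postn and Cd163, reached the filter only on EG arrays. The 10 mesangial and mural genes averaged 9.78, 11.02, 9.85 and 10.24, with 6 above on both EG arrays. The part of these cell types in the differences of the podocyte genes was not tested, and no defining marker of the endothelial, macrophage or mural list was below the background probes on all arrays. Of the fibroblast list Lum was below them on all 8.

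**Figure D4:**
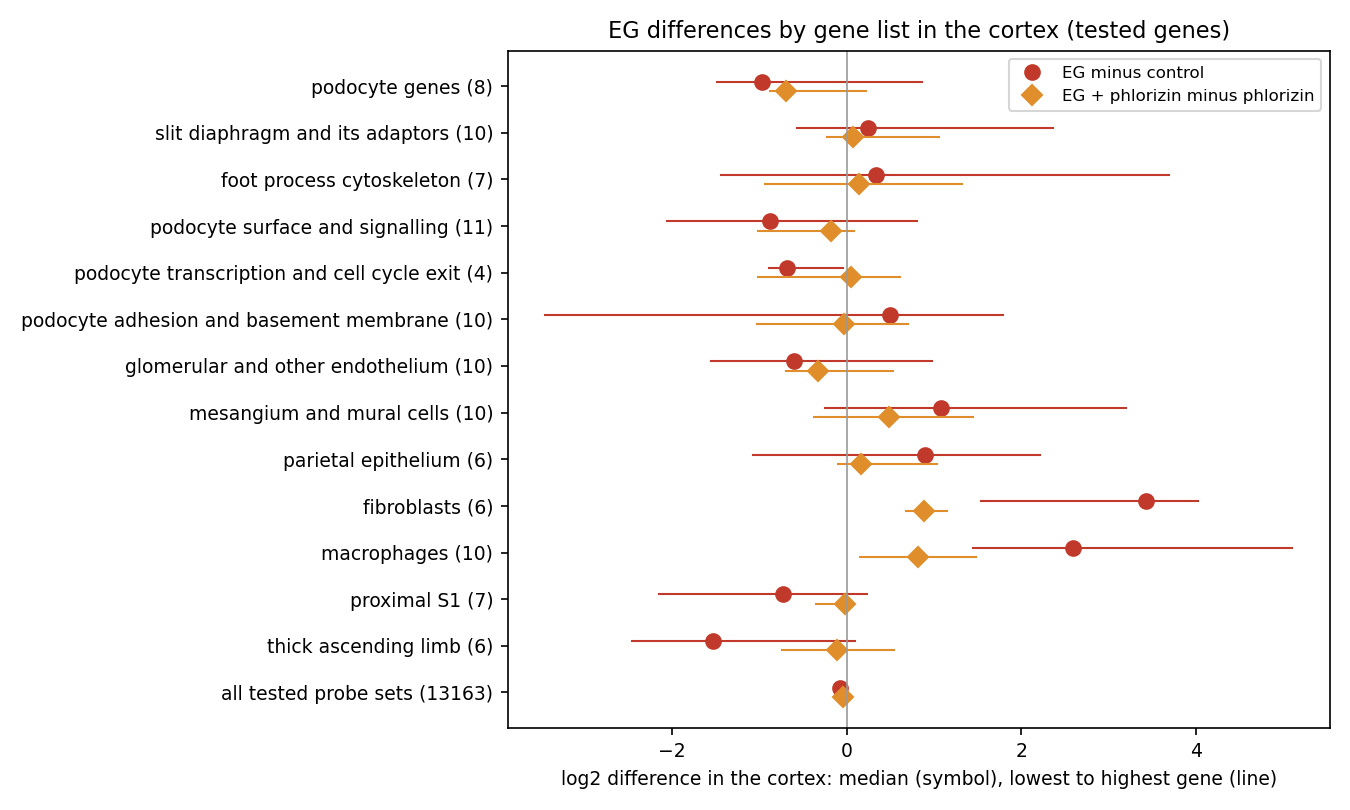
Log2 difference with EG in the cortex (x axis) for the tested genes of each list, with the number of genes in brackets, as the median (circle without phlorizin, diamond under it) and a line from the lowest to the highest gene. The podocyte genes have medians of -0.97 and -0.70, fibroblasts of 3.43 and 0.89, and all tested probe sets, shown without a line, of -0.07 and -0.05.

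The mean of the 8 genes, each centred on its own mean, was followed over the 8 arrays to find named genes of like pattern. The closest were Mlec (Pearson r = 0.995), Acox3 (0.992), Xpr1 (0.992), Oplah (0.992) and Tcea3 (0.989). Within zones, after the mean of each zone was taken away, the closest were Phax (0.983), Mlec (0.978), Mgat5 (0.977), Tfcp2 (0.977) and Apcs (0.974). Of the podocyte genes themselves, Nphs1 (0.971), Ptpro (0.962), Clic5 (0.927) and Wt1 (0.892) followed their mean most closely, and Cd2ap ran against it (-0.921). These correlations are over 8 arrays that share zone and treatment, the mean includes the gene itself for the podocyte genes, and they are given as a description. None of the genes of like pattern was in the lists of glomerular cells.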

How the data were processed

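RNA of 8 samples was measured on Affymetrix Clariom S rat arrays. The deposited values are log2 expression made by the authors with RMA, per the submitters' processing notes. No version of it is named in these notes. The base of the logarithm was taken as 2 because the values ran from 2.28 to 19.7. Of 24834 probe sets, 1646 were controls or of other kinds and were not used, and 23188 remained, 15049 of them with a gene symbol from the platform annotation. A probe set was tested if at least 1 array reached 7.54, the median over all probe sets and arrays.

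Tests used limma 3.58.1 in R 4.3.3, 2-sided, with Benjamini-Hochberg adjustment over 13163 probe sets. Zones were compared over 8 arrays with treatment as a block. EG and phlorizin were fitted over 4 cortex arrays, over 4 profiles that are the mean of both zones, and over 4 zone differences. Single-array differences were counted from 1 on the log2 scale. Fits were checked on simulated data. Python 3.11.15, pandas 2.3.3, numpy 2.4.6 and matplotlib 3.10.9 were used for the rest. Promoter windows are from RefSeq, build GRCr8, and all 8 genes matched. Every gene was named in each comparison, and of the other lists up to 4 genes with the largest mean cortex difference, with further genes chosen after their values were seen. Genes and lists were chosen with earlier results of these data known. Alternatives changed the filter, the normalization, how symbols with several probe sets were summarised, the prior of the variance, the size threshold and which arrays entered.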

Additional observations from a re-analysis of the deposited data

Results flagged for a closer look

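The EG difference went opposite ways in the zones, in both phlorizin arms, for 4 of the podocyte genes. These genes were picked by those signs, so the signs of the estimates below follow from that choice. The share of all tested probe sets with such signs was not counted. The EG difference in the cortex minus that in the outer medulla was -1.11 for Nphs1 (SE 0.32), -1.21 for Wt1 (SE 0.30), -1.19 for Synpo (SE 0.28) and -1.06 for Ptpro (SE 0.29). This difference between zones was tested by limma over the 4 treatments, with adjusted p of 0.34, 0.30, 0.29 and 0.32, so none passed over all 13163 probe sets. Nphs1 was near background in the outer medulla, so its sign there carries no weight. The podocyte gene Nes, at -0.78 (SE 0.27, limma adjusted p = 0.37), had 1 of its 2 outer medulla differences on each side of 0. In that fit limma called 0% of all probe sets, while at an unadjusted p under 0.05 Wt1, Synpo, Ptpro and Nes were lower, 4 of the 7 genes other than Nphs1, against 6.47% of all. Of these, Wt1 and Ptpro reached the filter only on cortex arrays.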

How the results depend on the processing

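The zone calls, higher and lower together, numbered 6 of 8 genes, and 4 to 7 when both arrays of 1 treatment were left out. Of all 13163 probe sets 2480 were called higher in the cortex and 4300 lower. Those numbers were 1857 and 3178 with the control left out and 2833 and 4647 with EG alone left out. They were 1792 and 2875 with phlorizin left out, and 1816 and 2868 with EG and phlorizin left out. The zone calls of the 8 genes numbered 7 with arrays centred or quantile normalized and 5 without the treatment block. Over all probe sets 2784 were higher and 3723 lower with centring, 2824 and 3824 with quantile normalization, and 1989 and 3413 without the block. The count of 7 genes below on both EG cortex arrays was 7 under each alternative tried, against 33.0%, 25.3%, 44.0% and 44.8% of all probe sets with centring, quantile normalization, without the EG array and without the array of EG with phlorizin. These 4 alternatives were chosen after seeing the data. Where an EG array was left out the count could not change, because that only eases the condition. With EG over both zones, 1 gene was called with centring, 1 without the filter and 2 with the 8 arrays as samples, instead of 0. Over all probe sets limma called 5 higher and 0 lower with EG over both zones, against 456 and 335 with centring, 400 and 231 without the filter, 47 and 12 with an intensity trend, 830 and 862 with the 8 arrays as samples, and 0 with quantile normalization. For EG in the cortex the 6 higher and 1 lower became 1 and 1 with centring, 0 with quantile normalization and 26 and 9 without the filter. The cause was not tested. With a size of 0.5 instead of 1, 7 cortex genes instead of 4, and 5 outer medulla genes instead of 2, were counted for EG without phlorizin. Under phlorizin 6 and 1 were counted instead of 0. For phlorizin alone 1 was counted in each zone, and among EG kidneys 4 in each, all instead of 0. With a size of 1.5 the EG counts were 0 in both zones. With centring, 1 gene was counted for EG under phlorizin in the outer medulla and 1 for phlorizin among EG kidneys in the cortex. The shares of all tested probe sets at sizes of 0.5 and 1.5, or with centring, were not counted. These counts therefore show only how they moved with the setting. The phlorizin estimate of Cd2ap in the cortex turned from -0.04 to 0.048 with centring. Averaging the probe sets of a symbol left every estimate of the podocyte genes as it was. It changed no count of them and is no check of their values. No paired analysis of replicates was possible because the labels give no replicate numbers and there is 1 array per zone and treatment. The treatment block of the zone comparison pairs the zones of a treatment, not replicates. Signal over background limits Nphs1 in the outer medulla.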

Other observations

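Genes known from the parietal epithelium of the glomerular capsule, which faces the podocytes, differed among themselves in the EG cortex. Of 6 tested genes, 3 were at least 1 higher without phlorizin and 1 was lower, against 9.66% and 12.7% of all tested probe sets. Pax8 and Cd24 lay above on both EG cortex arrays, as did 21.0% of all. The tight junction gene Cldn1 went from 10.80 to 12.40 in the EG cortex and stood at 10.16 with EG and phlorizin. Cd24, a surface glycoprotein that injured tubules also carry, was 2.21 higher, and 1.03 higher under phlorizin. Pax8, a transcription factor of tubules and parietal cells, was 1.25 and 0.23 higher. Prom1, encoding CD133, differed by -1.07 without and by 0.33 under phlorizin. Limma called none of the 6 for EG in the cortex at an adjusted p under 0.05, and at an unadjusted p 1 was higher.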
